A study of Mus musculus with 30 samples.

Results

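The cytosolic ribosomal protein genes were taken by symbol: every gene named Rpl or Rps with a number, with a closing letter a, x, y or l and a digit allowed, plus Rplp0, Rplp1, Rplp2 and Rpsa, and without the named pseudogenes and the S6 kinases. The rule found 89 genes of 54393 in the files, of which 83 have a protein-coding transcript and entered the tests, and 6 (Rpl32l, Rpl6l, Rps12l1, Rps3a2, Rps3a3 and Rps4l) are annotated as pseudogenes and were measured only. RNA-seq was performed on 14 libraries from adult male mouse brain. GFPpos (n = 2) are vascular endothelial cells (ECs) sorted from Tie2-GFP mice, in which a Tie2 promoter drives GFP, and GFPneg (n = 2) are the GFP-negative, non-endothelial cells of the same sort, with cerebrum and cerebellum data combined. WT cultured (n = 6) and stabilized cultured (n = 4) are brain ECs purified with puromycin and grown for 8 days. The molecule label of stabilized replicate 4 reads genomic DNA, and the library was used as RNA-seq by its title and protocol. WT replicates 1 and 2 are from C57BL/6J mice and replicates 3 to 6 from Ctnnb1flex3/+;Tie2-GFP mice. Stabilized cultures are from Ctnnb1flex3/+;Pdgfb-CreER;Tie2-GFP mice, where a tamoxifen-inducible Cre driven by Pdgfb removes the exon of beta-catenin that marks it for degradation; the study's methods give 4-hydroxytamoxifen to control and stabilized mice alike. Replicates 1 and 2 of both cultures were isolated by one protocol (method A) and the others by another (method B), with brains of several mice pooled and 2 wells per experiment as the replicates, so the p-values measure the spread between wells and experiments.

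Ribosomal proteins and ribosomal RNA make up the small and large subunits of the cytosolic ribosome, and growing cells spend much of their transcription on them. Their mRNAs begin with a run of pyrimidines, the terminal oligopyrimidine tract, through which mTOR signaling controls their translation. Most of the genes have many processed pseudogenes of almost the same sequence, so that short reads can be hard to place. In the text, 77 genes are called core members (43 of the large subunit, 31 of the small subunit and 3 of the acidic stalk), and 6 are paralogs (Rpl3l, Rpl10l, Rpl22l1, Rpl39l, Rps27l and Rpl7l1).

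Promoters were searched for runs of C and T on the coding strand that begin with C. Of 63 members matched by symbol to a RefSeq promoter (build GRCm38.p6), 19 (30.2%) held a run of at least 5 bases beginning within 5 bases of the annotated start, against 15.7% of the other 16400 matched genes. Only 25 members had a RefSeq start within 10 bases of the GENCODE start used here. A second search, with both its window and its minimum length chosen after that result was seen, took runs of at least 8 bases within 50 bases of the start and matched 52 members (82.5%) and 28.5% of the other genes. Its runs began between 49 bases before and 42 bases after the annotated start, so many of them are not at the annotated end of the mRNA. The windows below show such a run in capitals for Rps6, the protein phosphorylated by S6 kinase, and for 4 other members with runs of more than 10 bases.
Rps6 (chr4:86857347-86857376, minus strand): aagtcgggCCTCTTTTTCgtgacgcctccc
Rps18 (chr17:33955646-33955675, minus strand): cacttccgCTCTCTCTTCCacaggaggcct
Rpl7a (chr2:26910787-26910816, plus strand): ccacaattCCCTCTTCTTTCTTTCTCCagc
Rpl15 (chr14:18270969-18270998, minus strand): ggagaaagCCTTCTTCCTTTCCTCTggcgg
Rpl35 (chr2:39005117-39005146, minus strand): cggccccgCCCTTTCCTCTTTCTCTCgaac

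The second sequence feature, near-identical genes elsewhere in the genome, bears on every value. Other genes that hold at least 50% of their 31-base words in common with a member numbered 306, and 71 members had at least 1 of them. Of all windows of 36 bases in a member's main transcript, a median of 59.7% also occurred in a transcript of another gene, and the median was 47.5% for windows of 75 bases and 27.2% for windows of 150 bases, the cycle numbers of the libraries. Rpl5, which binds ribosomal RNA in the large subunit, and the processed transcript Gm15500 differed at 1 of 1019 aligned bases, and Rpl12 and Gm10275 at 1 of 635. The 30-base windows that hold these differences are shown with the differing base in capitals.
Rpl5 (chr5:107900572-107900601, plus strand): Ctttttcccccttagcgcggccgactctgc
Gm15500 (chr7:114706206-114706235, minus strand): Ttttttcccccttagcgcggccgactctgc
Rpl12 (chr2:32961713-32961742, plus strand): Tcttttcggctttcggctcggaggaggcaa
Gm10275 (chr10:29699351-29699380, minus strand): Gcttttcggctttcggctcggaggaggcaa
Over their whole aligned stretches, Rps27 and Rps27rt, Rpl10 and Rpl10-ps3, and Rps12 and Rps12-ps3 did not differ at any base.

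Reads of these families were divided differently in each library. Of the estimated counts of members and the genes sharing their sequence, members held 61.5% to 67.1% in the 4 sorted libraries and 79.8% to 91.2% in the 10 cultures. Rpl5 held 3.99% of its pooled family counts and Rpl12 held 4.24%, with most of the rest on Gm15500 and Gm10275. Rpl10, which joins the large subunit late in its assembly, held 99.9% in both 150-cycle WT libraries but 7.02% to 12.7% in the other cultures. Rps2 held 99.2% in WT replicate 1, 77.3% in WT replicate 3 and 0.41% in WT replicate 5. Rps27 held 96.2% in WT replicate 5 and 1.04% in WT replicate 6, which are 2 wells of the same experiment. Rps6 held 5.53% to 9.83% in the sorted libraries and at least 93.45% in every culture. Since the division of reads moved with the library, each comparison below is given for the member alone and for the member with the genes that share its sequence, an alternative added after the data were seen.

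**Figure D1:**
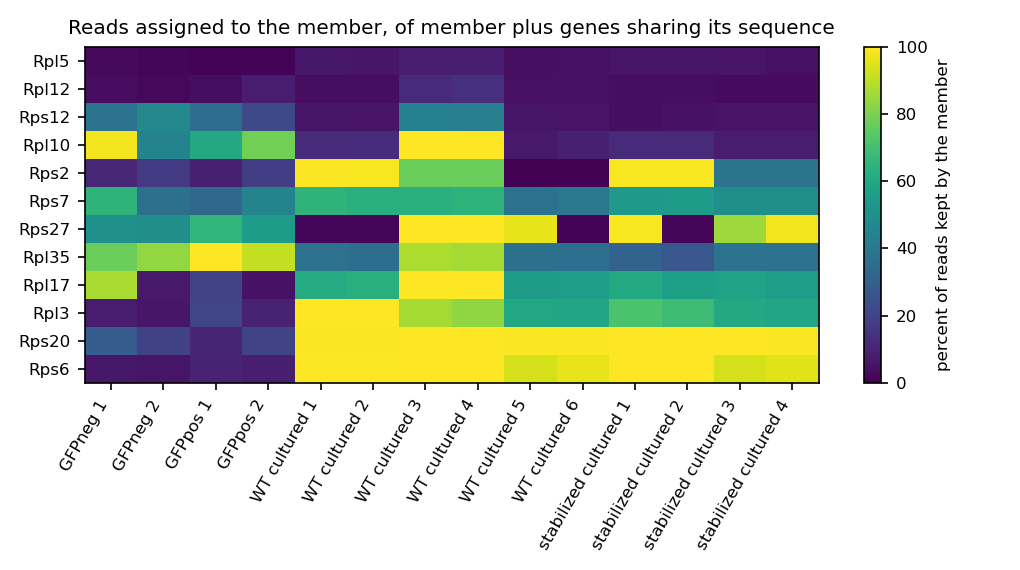
Percent of estimated counts assigned to the member itself, of the member and the genes that share its sequence (color scale, 0 to 100), for 12 members (rows) in the 14 RNA-seq libraries (columns). Rpl5 and Rpl12 are dark throughout, Rpl10 is bright in the 150-cycle WT replicates 3 and 4, and Rps27 switches between WT replicates 5 and 6.

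The libraries held 24284843 to 94686456 estimated counts, and members took 0.411% to 0.778% of them in the sorted libraries and 1.74% to 3.24% in the cultures. Deposited TPM was not used for levels, since the small RNA gene Mir6236 alone took 24.8% to 33.8% of TPM in sorted libraries and Rn7s1 took 21.8% to 45.5% in the 36-cycle cultures. TPM was therefore rescaled so that nuclear protein-coding genes sum to the same total in each library. Rescaling does not change the effective lengths by which TPM divides, and these differed between groups. The main transcript of Rpl3 had an effective length of 813 to 871 in GFPpos and 1257 to 1678 in WT. On the rescaled scale members made up 2.12% and 2.48% of the total in GFPneg and 3.48% and 3.65% in GFPpos. In WT cultures the share was 12.4%, 12.2%, 6.26%, 6.995%, 12.1% and 12.0% for replicates 1 to 6, and in stabilized cultures it was 9.24%, 8.98%, 11.4% and 11.9%. Every culture lay above every sorted library, and the 150-cycle WT replicates 3 and 4, prepared by an outside provider, lay below the other cultures. With the genes sharing sequence, the sum was also set against the total of nuclear protein-coding genes. Added genes that are not protein-coding, such as Rps3a2, lie outside that total, so these values are not true shares. They were 5.83% to 6.15% in GFPneg, 9.20% to 10.0% in GFPpos, 6.95% to 15.6% in WT and 11.0% to 14.8% in stabilized cultures. GFPpos then overlapped the WT cultures. The 150-cycle WT replicates 3 and 4, at 6.95% and 7.80%, lay below both GFPpos libraries, and WT replicates 1, 2, 5 and 6 lay above them. Sort, read format (single-end 75 cycles) and the lack of puromycin separate all sorted from all cultured libraries and cannot be told apart from culture. Genotype differs as well, since the sorted cells are from homozygous Tie2-GFP mice and WT replicates 1 and 2 are from C57BL/6J mice. The paper considers an effect of GFP or of puromycin on this comparison unlikely, and neither was tested here.

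**Figure D2:**
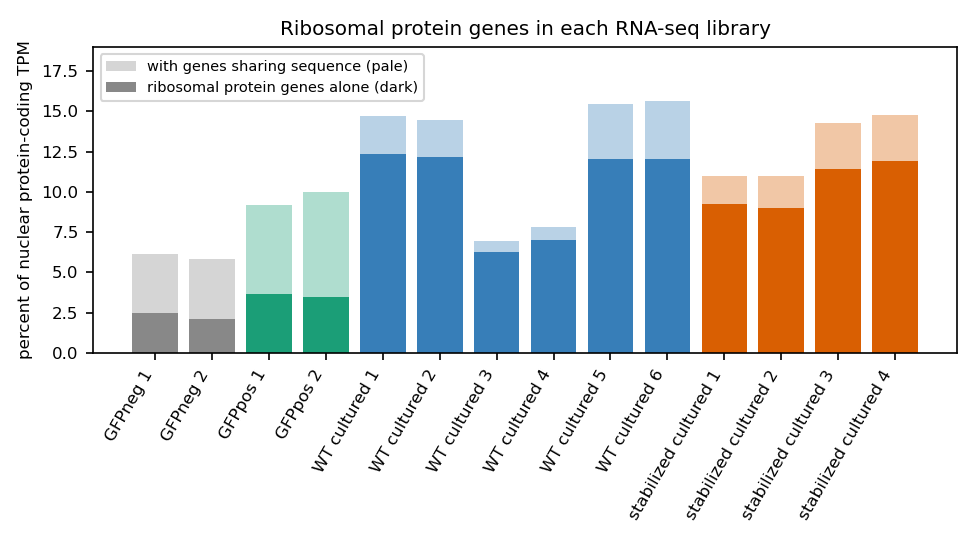
Ribosomal protein genes as a percent of the TPM of nuclear protein-coding genes in each library (dark bars) and with the genes sharing their sequence (pale bars). WT replicates 3 and 4 are at 6.26% and 6.995%, between the sorted libraries (2.12% to 3.65%) and the other cultures (8.98% to 12.4%).

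Among the core members, the standard deviation of log2(rescaled TPM + 1) was 1.67 to 1.89 in sorted libraries and 1.11 to 1.47 in cultures. With the genes sharing sequence it was 1.23 to 1.31 and 0.54 to 0.99. The profile over the 77 core members, as Pearson's r across genes, was 0.83 to 0.998 between wells of 1 WT experiment and 0.48 to 0.70 between WT experiments, and with the genes sharing sequence the ranges were 0.991 to 0.996 and 0.24 to 0.65. These correlations are descriptions across genes, which share libraries and are not independent replicates.

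The first comparison asked what culture does to brain ECs. Taken alone, without the genes sharing sequence, most ribosomal protein genes were higher in WT cultures than in GFPpos cells. Of 82 tested members 49 rose and 0 fell at an adjusted p under 0.05 in edgeR's quasi-likelihood test, where 23.9% of the 13756 genes tested rose and 21.4% fell. The 6 WT libraries are 3 experiments of 2 wells each; after adding up the 2 wells per experiment, 34 members rose and 0 fell. All 49 also met the study's criteria of a fold over 2 and a TPM of at least 5, as did 13.6% of all genes in the higher and 10.3% in the lower direction. The groups did not overlap in rescaled TPM for 50 members that were higher and 2 that were lower, against 28.3% and 25.1% of all genes. With the genes sharing sequence these counts were 38 and 8. The median log2 fold change was 1.78 for members and 0.10 for all genes. Of the large subunit 25 of 43 rose, of the small subunit 20 of 31, of the stalk 2 of 3 and of the paralogs 2 of 5. With the genes sharing sequence added, 36 rose and 0 fell, against 23.8% of all genes, with a median of 1.47; 33 genes were called both ways, 16 only for the member alone and 3 only with the added genes.

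Rplp0, the base of the stalk that recruits translation factors, was at 392 and 186 rescaled TPM in GFPpos and at 2436, 2485, 1071, 1191, 2431 and 2457 in WT replicates 1 to 6. All 6 cultures lay above both sorted libraries, and the gene rose by 3.10 ± 0.72 on the log2 scale (SE, edgeR adjusted p = 0.00806) and by 3.07 with genes sharing sequence. Rpl41, which encodes the smallest protein of the ribosome, was at 298 and 502 in GFPpos and at 2378 to 4759 (median 3426) in WT. The groups did not overlap, and it rose by 2.66 ± 0.46 (SE, edgeR adjusted p = 0.00205), or 2.64 with the added genes. Rpsa, a small-subunit protein also known as the laminin receptor, was at 219 and 363 in GFPpos and 842 to 2667 in WT, and it rose by 2.41 ± 0.56 on the log2 scale. Rps29, which was at 120 and 64.7 in GFPpos and at 1614 to 3817 in WT, rose by 4.39 ± 0.57, and by 3.96 with the added genes.

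Other large values depended on how reads were divided. Rps6 was at 67.6 and 66.0 in GFPpos and at 916 to 2710 in WT, a log2 fold change of 5.12 ± 0.70, which became 1.71 (edgeR adjusted p = 0.0350) with the genes sharing sequence. Rps20, at 9.004 and 11.2 in GFPpos and 690 to 2003 in WT, gave 5.18 ± 0.76 alone and 2.35 with the added genes. Rpl3, which lines the peptidyl transferase center, was at 100.02 and 56.3 in GFPpos and 357 to 912 in WT; it rose by 2.37 ± 0.56 alone, and with the added genes its value was -0.01 (adjusted p = 0.990). Rpl38 rose by 1.27 ± 0.41 alone and had a value of 0.41 (adjusted p = 0.412) with them. At the other end, Rps4x, the X-linked small-subunit gene, was at 1584 and 1350 in GFPpos and 368 to 1819 in WT, with a log2 fold change of -0.23 ± 0.61 that did not pass the test. Rpl35 had the lowest value, -0.49 ± 0.34, from 2983 and 1745 in GFPpos to between 332 and 745 in WT, and did not pass. Its share of family counts was 99.8% and 90.8% in GFPpos and 36.3% to 87.5% in WT, and with the added genes its value was 0.58. With an offset for effective length Rpl35 fell by 2.25 ± 0.40 (edgeR adjusted p = 0.00213). Rps3a1 (-0.27), Rps7 (0.10) and Rps12 (0.13) did not pass either. Rps28, at 48.5 and 10.2 in GFPpos and 1102 to 2107 in WT, rose by 5.06 ± 0.68, and by 3.84 with the added genes.

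Each culture experiment was also set against GFPpos on its own. Within the method A wells 62 members were higher than in GFPpos and 1 lower (Rps27), where 23.2% of all genes were higher and 25.7% lower. Within the 36-cycle method B wells 64 were higher and 1 lower (Rps2), against 24.4% and 24.1% of all genes. In the 150-cycle wells 38 were higher and 7 lower, against 27.6% and 30.3%. The 7 were Rpl21, Rpl22, Rpl27a, Rpl4, Rps3a1, Rps4x and Rps7, and Rps3a1 gave -3.03 there, where it held 26.0% and 26.4% of its family counts and Rps3a2 held most of the rest. All 3 contrasts use the same 2 GFPpos libraries. Markers of other cells moved with this comparison: the summed rescaled TPM of 5 erythrocyte genes was 16895 and 101415 in GFPpos and at most 2.45 in WT, that of 6 astrocyte genes 216 and 1448 against 9.50 to 48.6, and that of 7 endothelial genes 6898 and 9063 against 1713 to 4390. The sum of 6 pericyte genes was 1248 and 1632 in GFPpos against 5.74 to 25.3 in WT, and that of 4 smooth muscle genes was higher in every culture, at 529 and 723 against 1095 to 7595. Their part in the result was not tested. In bulk samples, fewer cells of a type and less RNA per cell cannot be told apart. The sum of 6 proliferation genes overlapped between the groups, at 130 to 226 in GFPpos and 143 to 397 in WT, and was not tested either.

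**Figure D3:**
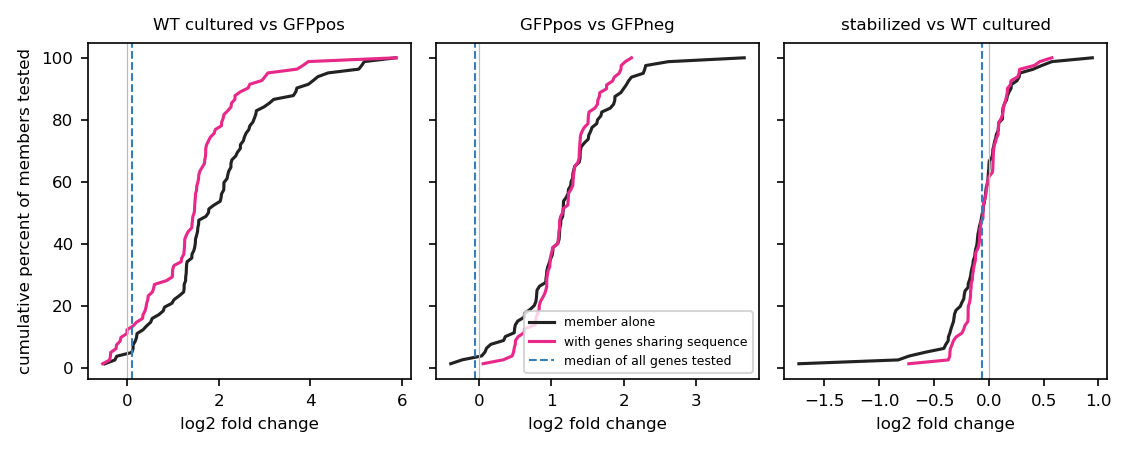
Cumulative percent of tested members by log2 fold change for the 3 comparisons, for members alone (black) and with the genes sharing sequence (pink), with the median of all genes tested (dashed). The culture median falls from 1.78 to 1.47 with the added genes, the sort median stays at 1.16, and the stabilized median is near the median of all genes.

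Paralogs are variant copies of a core gene, often expressed in few tissues. Rps27l, a p53-responsive paralog of Rps27 that has no gene sharing its sequence at the level used here, was at 72.8 and 66.8 in GFPpos and at 1307 to 1731 in WT, and rose by 3.70 ± 0.45 on the log2 scale (edgeR adjusted p = 0.000419). Its partner Rps27 was at 1815 and 1055 in GFPpos and at 37.1, 39.9, 944, 1142, 2833 and 18.9 in WT, and its low values in WT replicates 1, 2 and 6 are those of the libraries where it held 1.04% to 1.75% of its family counts. Rpl7l1 rose by 1.56 ± 0.29, from 21.3 and 40.03 rescaled TPM in GFPpos to between 91.3 and 114 in WT. Rpl22l1 was at 403 and 307 in GFPpos and 49.3 to 176 in WT, where the groups did not overlap on this scale, with a log2 fold change of 0.21 ± 0.50 on the count scale that did not pass. With an offset for effective length the sign turned and Rpl22l1 fell by 1.75 ± 0.45 (edgeR adjusted p = 0.0109). Its partner Rpl22 was at 347 and 359 in GFPpos and at 251 to 954 in WT, Rpl39 at 358 and 276 and at 434 to 1933, and Rpl7 at 923 and 752 and at 536 to 1728. Rpl39l stayed at or below 14.6 in every library and Rpl3l at or below 0.840, and Rpl10l was listed at 0 in all. Among the pseudogene-annotated symbols, Rps4l reached 93.5 and 103 in the 150-cycle libraries and was at 36.1 to 51.1 in the other WT cultures.

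The second comparison, GFPpos against GFPneg, asked which genes mark endothelial cells within the brain. Of 80 tested members 21 rose and 0 fell, where 9.99% of 15080 genes rose and 19.8% fell, all 21 met the study's criteria (8.34% of all genes higher, 7.58% lower), and the median log2 fold change was 1.16 for members and -0.06 for all genes. With the genes sharing sequence 36 rose, where 10.1% of all genes did and 19.9% fell, 19 of them also called for the member alone, and all 80 members had a log2 fold change above 0. Rpl37a, at 329 rescaled TPM on average in GFPpos and 101 in GFPneg, rose by 2.30 ± 0.42 (edgeR adjusted p = 0.0113), and Rps27 by 2.27 ± 0.51. Rps23 rose by 2.61 ± 0.74 alone and by 0.98 with the added genes. Rps4x was at 1584 and 1350 in GFPpos against 873 and 759 in GFPneg and rose by 1.40 ± 0.33. Rpl10a was at 470 and 24.2 in GFPpos, where it held all and 8.93% of its family counts, and its value of 3.66 ± 1.37 did not pass (edgeR adjusted p = 0.0937) and was 0.83 with the added genes. Rpl22l1, at 403 and 307 in GFPpos and 72.3 and 448 in GFPneg, had -0.39 ± 0.58. Rpl17 (-0.23), Rpl5 (0.04), Rpl7a (0.08) and Rpl13 (0.10) did not pass alone; with the added genes Rpl17 (1.51), Rpl5 (1.10) and Rpl13 (1.39) rose. The count rests on few libraries: it was 3 without GFPneg replicate 1, 1 without GFPneg replicate 2, 7 without GFPpos replicate 1 and 27 without GFPpos replicate 2. It was 3 with an offset for effective length, where 5.33% of all genes rose and 13.9% fell. The groups did not overlap for 41 members that were higher and 2 that were lower, against 18.1% and 43.8% of all genes, and with the genes sharing sequence for 48 and 0. GFPneg held 565 to 916 summed rescaled TPM of 6 neuronal genes against 9.93 to 14.2 in GFPpos, and 13546 to 14864 of 4 smooth muscle genes against 529 to 723. Astrocyte, oligodendrocyte, microglia and fibroblast sums were also higher in GFPneg. Pericyte sums overlapped, at 1248 to 1632 in GFPpos and 1327 to 1937 in GFPneg. Erythrocyte sums were 16895 to 101415 in GFPpos and 5171 to 42863 in GFPneg. The part of these cells in the result was not tested. This comparison shares the GFPpos libraries with the first.

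The third comparison, stabilized against WT cultures, asked what the stabilized form of beta-catenin changes. The paper reports very low levels of beta-catenin target genes in these stabilized cultures, which it reads as a failure to activate the signaling. Of 81 tested members 0 rose and 0 fell by edgeR, as for all 12935 genes (0.0%), while 5 members and 1421 of all genes (11.0%) had an unadjusted p under 0.05; DESeq2 called 1 member lower (Rpl12), with 109 genes higher and 118 lower in all. The median log2 fold change was -0.05 for members and -0.07 for all genes. Rpl10 had the lowest value, -1.73 ± 0.62 (edgeR adjusted p = 0.407), and Rps27 the highest, 0.94 ± 1.31, both among the genes whose reads were divided differently between libraries. Next to them were Rpl12 (-0.83), Rps27l (-0.73), Rps12 (-0.58) and Rpl35 (-0.41) at the low end and Rpl39l (0.57), Rps16 (0.48), Rps2 (0.40) and Rps15 (0.28) at the high end, none of which passed. The groups did not overlap for 0 members that were higher and 3 that were lower, against 2.74% and 1.59% of all genes, and with the genes sharing sequence for 1 and 2. With those genes added 0 members passed in either direction, Rpl10 was at -0.17 and Rps27 at -0.12, and core members ranged from -0.37 to 0.46.

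Fits to subsets of the cultures gave other counts. With only the 36-cycle cultures and a term for isolation method, 23 members fell and 0 rose (8.61% of all genes fell and 9.06% rose), with a median of -0.40, and 22 fell with the genes sharing sequence. That fit, like the test of the methods below, treated wells of the same experiment as independent. After adding up the 2 wells per experiment over all cultures, without a term for method, 0 members rose and 0 fell. In method A, 70 of 81 members were lower and 3 higher, where 26.9% of all genes were lower and 29.4% higher, with a median of -0.65. In method B, 23 were lower and 5 higher, where 17.7% of all genes were lower and 19.6% higher, with a median of -0.09. A test of the difference between the methods passed for 69 of 81 members, 66 of them with a higher value in method B, against 50.0% of all genes. Rplp0 was at 2436 and 2485 in WT and 1890 and 1833 in stabilized wells of method A, a log2 fold change of -0.65 ± 0.08, and at 2431 and 2457 against 1985 and 2047 in method B, -0.30 ± 0.05. Rps20 was at 1978 and 2003 against 1257 and 1226 in method A (-0.81 ± 0.08) and at 1946 and 1964 against 1819 and 1955 in method B (-0.01 ± 0.06). Rpl41 gave -0.65 ± 0.07 and -0.18 ± 0.05. Each of these contrasts sets 2 wells of 1 experiment against 2 wells of another, so stabilization and experiment cannot be told apart in either method. Their SEs measure the spread between wells only. In method A the control strain was C57BL/6J, so strain cannot be told apart from stabilization there either. Rps2 (6.26 in method B) held 0.41% of its family counts in those WT wells and 38.6% in the stabilized wells. Rps27 (4.04 in method A, not passing) held 1.5% and 1.75% in WT and 99.0% and 1.53% in stabilized wells. Rps16 gave 4.50 ± 0.31 in method A, from 21.2 and 52.0 in WT to 896 and 957.5 in stabilized wells, while it held all of its family counts in both WT wells.

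**Figure D4:**
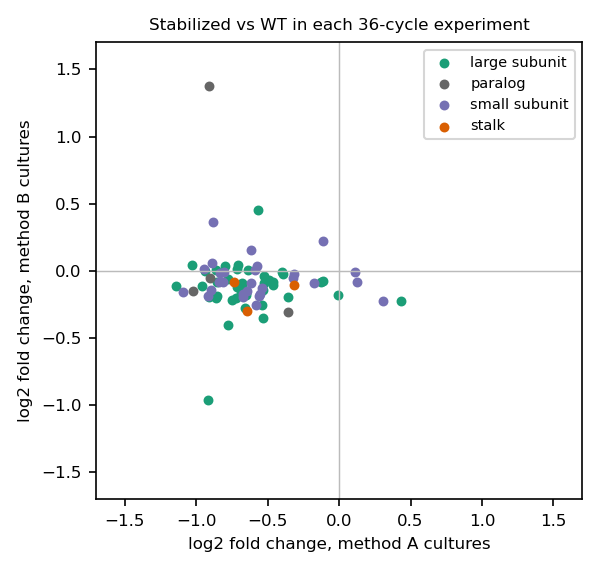
Log2 fold change of stabilized against WT cultures for each tested member in method A (x axis) and in 36-cycle method B wells (y axis), colored by class, with both axes drawn from -1.7 to 1.7. Most members lie left of 0 (75 of 81) and near 0 on the y axis (64 of 81 below it); Rps16, Rps2 and Rps27 lie outside the axes.

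Genes that act with the ribosome were counted from lists, to be read against the 23.9% of all genes that rose and 21.4% that fell in culture. The shares of the first 3 lists named here are near or below these values in the higher direction. In culture, 8 of 30 ribosome assembly factors rose and 2 fell, among them Mrto4 at 2.93 ± 0.42 and Rrp12 at 2.89 ± 0.75. Of 13 RNA polymerase I genes 3 rose and 2 fell; Polr1e rose by 3.13 ± 0.42 and Ubtf, which opens ribosomal DNA for transcription, fell by 1.90 on the log2 scale. Of 16 elongation factors and other transcripts with a terminal tract 3 rose and 0 fell, Rack1 by 1.84 ± 0.57, with Pabpc1 at -1.16 ± 0.57 not passing. Of 18 S6 kinases and regulators 6 rose and 4 fell, against the same 23.9% and 21.4%; Eif4ebp1, an mTOR target that holds back translation, rose by 4.72 ± 0.54, Myc by 3.77 ± 0.82, and Mycn fell by 3.71. Mitochondrial ribosomal protein genes rose in 49 of 78 cases and fell in 0, with a median of 1.44, where 23.9% of all genes rose. In the sort, where 9.99% of all genes rose and 19.8% fell, 1 of these 78 rose (Mrpl11, 3.26 ± 0.97), 0 fell and the median was -0.10, beside 1.16 for the cytosolic genes. In stabilized cultures none of the 78 passed in edgeR, and all 78 had a value below 0 (median -0.47).

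Promoter accessibility was described from the ATAC-seq peaks (n = 10 libraries). A peak with a fold enrichment over 2 and a −log10 q over 2 lay within 100 bases of the start site of 77 of 83 members in each GFPpos library, 74 to 78 in WT cultures and 77 in both stabilized cultures, which is 89.2% to 94.0%. Among genes with at least 1000 pooled counts, 73.0% to 85.8% had such a peak. In all 10 libraries 73 members had one, and 5 (Rpl10l, Rpl28, Rpl39l, Rpl3l and Rps10) had none at the start of their main transcript. For Rpl28 and Rps10 the RefSeq start lies 628 and 769 bases from the start used here, outside the window searched. The same holds for Rpl35, with a peak in 2 libraries and a RefSeq start 493 bases away. A missing peak in these 3 members therefore says nothing about their RefSeq promoter.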

How the data were processed

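RNA-seq reads were quantified by the authors with Salmon 0.14.0 on GENCODE M21 transcripts (GRCm38). For each of 140198 transcripts the deposited files hold estimated counts, TPM and effective length. Counts were summed per gene and rounded, and 21761 protein-coding genes were analysed. edgeR 4.0.16 in R 4.3.3 (filterByExpr, TMM, quasi-likelihood test, Benjamini-Hochberg adjustment over all genes) was applied to each comparison, with limma 3.58.1 and DESeq2 1.42.0 as alternatives, and was tested on simulated data. The study criteria add a fold over 2 and, in the higher group, at least 5 TPM. Genes sharing sequence hold at least 50% of their 31-base words in common with a member. Rescaled TPM sets the sum of nuclear protein-coding genes equal in all libraries. ATAC-seq peaks were called by the authors with MACS2 2.1.2 on HISAT2 2.1.0 alignments; the deposited lists hold a score, a fold enrichment, and −log10 p and −log10 q, of which fold and q were used. Named genes were a fixed set of 8 members, the paralogs with their partners, and the 5 highest and 5 lowest log2 fold changes of each comparison, with 2 highest and 2 lowest per list. The members and lists were chosen with earlier results of these data known. Estimated counts cover counting error only. Cerebrum-only samples were not analysed here.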

Additional observations from a re-analysis of the deposited data

Results flagged for a closer look

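The difference between stabilized and WT wells in ribosomal protein genes was not the same in both isolation methods. The test passed for 69 of 81 members, where 50.0% of all genes passed. The median difference was 0.52 on the log2 scale (method B minus method A). The strain of the controls and the experiment differ with the method and cannot be told apart from it. A search for single samples far from the others in WT and stabilized cultures, over 76 groups of values, found 0. This does not mean that no library deviates. Rps27 held 1.53% of its family counts in stabilized replicate 2 and 85.2% to 99.0% in stabilized replicates 1, 3 and 4.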

How the results depend on the processing

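For culture, the number of members that rose ranged from 26 to 54 when 1 library was left out, by adjusted p and by the study criteria alike; it was 31 without GFPpos replicate 1, 26 without GFPpos replicate 2 and 34 after adding up the 2 wells per experiment. Members that fell numbered 0 to 1 then, 2 with the effective length offset (Rpl35 and Rpl22l1) and with limma on rescaled TPM, 1 in method A, 1 in method B and 7 in the 150-cycle cultures (5 by the study criteria). For the sort, members that rose numbered 9 with library size alone (7 by the study criteria), 3 with the effective length offset, 10 with protein-coding transcripts only, 6 with limma on TPM, 5 with limma on rescaled TPM, 36 with genes sharing sequence (32) and 1 to 27 when 1 library was left out. For stabilized cultures, members that fell numbered 1 with DESeq2, 23 with 36-cycle cultures and a method term, 22 with genes sharing sequence as well, 70 in method A and 23 in method B; by the study criteria these counts were 0 for both 36-cycle fits, 4 in method A and 0 in method B, and 3 rose in method A (1) and 5 in method B (2); leaving out 1 library gave 0. The interaction count was 52 to 71 then. Same-numbered libraries did not deviate together in every pair (r from -0.04 to 0.50), and the main fits do not pair the samples. Where a group has 2 libraries, their deviations mirror each other, so this check cannot decide on pairing. GFPpos and GFPneg are cells of the same sort. With a replicate block 61 members rose and 1 fell in culture, 15 rose in the sort, and 1 fell (Rps27l) in stabilized cultures. Outside the sort, equal replicate numbers join libraries of different experiments and are not true pairs. In culture the block sets GFPpos against WT replicates 1 and 2 only. In stabilized cultures it sets stabilized replicates 3 and 4 against the 150-cycle WT replicates 3 and 4. The mean share of deposited TPM was 1.29% in GFPpos, 0.704% in GFPneg, 5.41% in WT and 5.02% in stabilized cultures. Without mitochondrial and hemoglobin genes it was 1.61% and 0.954% in the sorted groups, per annotated kilobase 2.90%, 1.74%, 8.75% and 8.77%, and rescaled 3.57%, 2.30%, 10.3% and 10.4%. With genes sharing sequence, against a total that leaves out the added genes that are not protein-coding, it was 9.61%, 5.99%, 12.5% and 12.8%. Genes sharing sequence, single experiments, 150-cycle cultures and rescaled TPM were chosen after seeing the data. The smallest library held 24284843 counts. The causes of these shifts were not tested.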
